A study of Homo sapiens with 4 samples.

Results

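SUPT5H, CCNT1 and LEO1 encode components of the machinery that carries RNA polymerase II along a gene. They were 3 of the 9667 genes measured, taken by gene name and read from each gene's deposited start to its end. All 3 were listed in each of the 4 libraries. The measure was FLASH-seq signal, that is, RNA recovered with a protein after ultraviolet crosslinking, streptavidin capture and RNase I trimming. The cells were RPE1, an immortalised human retinal pigment epithelial line, in a background labelled iCas9 p53/puro-dKO CFAP20-KO. This background, with its p53 and CFAP20 knockouts, was shared by every library. The 2 tagged-CFAP20 libraries came from these knockout cells expressing FLASH-BIO-CFAP20, the capture tag joined to CFAP20. The 2 CFAP20-KO libraries, the negative control, were made from knockout cells lacking that construct. The labels do not say how strongly the tagged protein was expressed or whether the line was 1 clone, and they do not call the replicates separate cultures. The p-values therefore reflect only how these libraries vary, and that variation may be technical.

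After initiation, RNA polymerase II tends to stop a short way into the gene and needs further factors to resume. SPT5, encoded by SUPT5H, pairs with SPT4 to form DSIF, which first helps hold the polymerase in place and then, once phosphorylated, travels with it as a positive factor. Cyclin T1, encoded by CCNT1, is the regulatory subunit of P-TEFb, whose kinase CDK9 phosphorylates SPT5, the negative factor NELF and the polymerase tail. LEO1 is a subunit of the PAF1 complex, which rides on the elongating polymerase and is needed for histone modifications laid down during transcription. These are the roles of the proteins, whereas the signal described here came from the RNAs of the 3 genes.

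The libraries differed in depth. Reads overlapped gene bins of 200 bp 165189 and 134891 times in the tagged-CFAP20 libraries, against 9146 and 3908 times in the CFAP20-KO libraries. One overlap was worth 12.9 and 13.9 units of deposited signal in tagged-CFAP20 replicates 1 and 2, against 83.0 and 276.88 units in CFAP20-KO replicates 1 and 2. A gene at 0 could hide the signal of 3 reads, which is 53.0 and 57.5 units in the tagged-CFAP20 libraries and 343 and 1143 units in the CFAP20-KO libraries. These limits, and the intervals below, cover counting error only. In the tagged-CFAP20 libraries, coding bins of CFAP20 held 36 and 38 overlaps, against 0 in each CFAP20-KO library, as the labels would have it, though 0 overlaps at the control depth does not exclude reads there. Of 3 visual-cycle markers of retinal pigment epithelium, RPE65, RLBP1 and LRAT, none had more than 4 overlaps in a tagged-CFAP20 library, and all were at 0 in both CFAP20-KO libraries. Transcription factors of the eye and pigment lineage had more reads, in counts not adjusted for gene length. OTX2 had 26 and 34 overlaps in the tagged-CFAP20 libraries, against 0 and 0 in the CFAP20-KO libraries. MITF had 31 and 21 in the tagged-CFAP20 libraries, against 5 and 0 in the CFAP20-KO libraries. PAX6 had 85 and 81 overlaps in the tagged-CFAP20 libraries, against 1 and 1 in the CFAP20-KO libraries.

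The bins of coding sequence where signal was highest are shown first, since the results below refer to them. They were picked after the values were seen, as the bin with most tagged-CFAP20 overlaps among those with at least 50 exonic bases and no UTR in each gene. For SUPT5H the intron bin with most overlaps is added, because it lies in a stretch where introns and exons were covered alike. In CCNT1 the printed bin ties at 5 pooled overlaps with the next 2 bins, and the one nearest the gene start was taken. The sequences are from the hg38 reference, read 5′ to 3′ on the gene's own strand. Capitals mark bases in exons of the GENCODE canonical transcript and lower case marks intron.
SUPT5H exon 3, chr19:39453343-39453542, plus strand: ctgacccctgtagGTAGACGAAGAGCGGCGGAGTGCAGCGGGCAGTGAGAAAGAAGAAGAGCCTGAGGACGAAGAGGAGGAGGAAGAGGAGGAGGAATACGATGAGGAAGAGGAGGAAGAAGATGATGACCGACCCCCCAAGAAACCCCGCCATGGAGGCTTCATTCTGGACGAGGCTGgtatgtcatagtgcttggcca
SUPT5H intron after exon 4, chr19:39457743-39457942, plus strand: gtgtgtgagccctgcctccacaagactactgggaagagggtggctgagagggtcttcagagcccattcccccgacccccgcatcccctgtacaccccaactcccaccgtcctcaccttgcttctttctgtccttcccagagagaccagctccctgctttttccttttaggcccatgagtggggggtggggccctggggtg
CCNT1 exon 9, chr12:48694199-48694398, minus strand: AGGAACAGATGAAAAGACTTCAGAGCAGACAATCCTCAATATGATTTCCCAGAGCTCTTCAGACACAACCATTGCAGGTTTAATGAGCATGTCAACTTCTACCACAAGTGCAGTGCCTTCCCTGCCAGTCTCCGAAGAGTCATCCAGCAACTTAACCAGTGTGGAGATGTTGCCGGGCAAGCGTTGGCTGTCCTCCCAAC
LEO1 exon 10, chr15:51949707-51949906, minus strand: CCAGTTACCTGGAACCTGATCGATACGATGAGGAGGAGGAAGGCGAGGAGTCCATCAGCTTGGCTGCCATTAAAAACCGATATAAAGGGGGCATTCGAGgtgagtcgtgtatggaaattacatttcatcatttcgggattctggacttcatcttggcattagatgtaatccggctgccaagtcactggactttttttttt
The SUPT5H exon 3 bin holds a long run of purines, in the part of the message that encodes the acidic amino-terminal region of SPT5. Purines made up 68.5% of its bases, the highest share among the 37 coding bins of SUPT5H, whose median was 50.5%. The CCNT1 bin had 50% purines and the LEO1 bin 52.0%, against medians of 47.0% over 20 coding bins and 55.5% over 22 coding bins.

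SUPT5H was among the most heavily covered genes of the experiment, with or without tagged CFAP20. The gene runs from 39441643 to 39476670 on the plus strand of chromosome 19 (hg38). It held 458 and 346 read overlaps in tagged-CFAP20 replicates 1 and 2, against 18 and 11 in CFAP20-KO replicates 1 and 2. As deposited signal these were 5887 and 4821 units in the tagged-CFAP20 libraries, against 1494 and 3046 units in the CFAP20-KO libraries. Both tagged-CFAP20 libraries were above both CFAP20-KO libraries, and the CFAP20-KO libraries differed from each other more than the tagged-CFAP20 libraries did. Mean signal was 5354 ± 753.7 units in tagged-CFAP20 and 2270 ± 1097 units in CFAP20-KO (SD, n = 2 each), and their ratio was 2.36.

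The change in SUPT5H did not pass the test across all genes. In limma on log2(signal + 10) the log2 change, tagged-CFAP20 over CFAP20-KO, was 1.32 with a standard error of 0.42 and an adjusted p of 0.102. With the reads of each group pooled, the ratio was 2.90, with a 95% exact counting interval of 1.88 to 4.72 that leaves out the spread between libraries. The limma call changed when either CFAP20-KO library was left out, at a log2 change of 0.80 without replicate 1 and 1.83 without replicate 2. It did not change when either tagged-CFAP20 library was left out, at 1.17 without replicate 1 and 1.46 without replicate 2. Each of those limma fits rests on a single library in 1 group, assumed to vary like the pair in the other.

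CCNT1 had a much lower signal, and its control rested on few reads. The gene runs from 48688464 to 48716898 on the minus strand of chromosome 12. It had 49 and 41 overlaps in the tagged-CFAP20 libraries, against 4 and 2 in the CFAP20-KO libraries. The signal was 630 and 571.3 units in tagged-CFAP20 replicates 1 and 2, against 332 and 553.8 units in CFAP20-KO replicates 1 and 2. The higher CFAP20-KO value lay just under the lower tagged-CFAP20 value, with no overlap between the groups. The means were 600.5 ± 41.4 and 443 ± 157 units in tagged-CFAP20 and CFAP20-KO (SD, n = 2 each), and their ratio was 1.36. The limma log2 change was 0.47 with a standard error of 0.56 and an adjusted p of 0.560, and the pooled-read ratio was 1.57 with an exact interval of 0.606 to 5.53. The log2 change was 0.11 with a limma adjusted p of 0.753 without CFAP20-KO replicate 1, and 0.83 with an adjusted p of 0.0203 without replicate 2.

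LEO1 had the lowest signal of the 3 genes. It runs from 51938025 to 51971806 on the minus strand of chromosome 15, and had 38 and 42 overlaps in the tagged-CFAP20 libraries, against 3 and 1 in the CFAP20-KO libraries. The signal was 488 and 585.2 units in the tagged-CFAP20 libraries, against 249 and 277 units in the CFAP20-KO libraries, again without overlap between the groups. The means were 536.8 ± 68.4 units in tagged-CFAP20 and 263 ± 19.7 units in CFAP20-KO (SD, n = 2 each), and their ratio was 2.04. The narrow control SD comes from 4 overlaps in all, and counting error on them is larger than it. The limma log2 change was 1.00 with a standard error of 0.58 and an adjusted p of 0.293, and the pooled-read ratio of 2.09 had an exact interval of 0.672 to 10.8. Without CFAP20-KO replicate 1 the LEO1 control is a single overlap, so no value is given. Without replicate 2 the control is 3 overlaps, and the log2 change was 1.07.

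None of the 3 genes passed an adjusted p of 0.05 in limma, whereas 37.6% of the 4461 genes tested passed it with higher signal in tagged-CFAP20 and 0.0672% with lower signal. Both tagged-CFAP20 values lay above both CFAP20-KO values in all 3, which was also so for 69.4% of the genes tested. The median log2 change over all genes tested was 2.10, which follows the pseudocount because many genes were at 0 in CFAP20-KO. Relative to that median the changes were -0.78 in SUPT5H, -1.63 in CCNT1 and -1.10 in LEO1, but the side on which SUPT5H and LEO1 lay turned with the setting. With a pseudocount of 300 they were 0.85 in SUPT5H, -0.058 in CCNT1 and 0.22 in LEO1, and under quantile normalization 0.50, -0.41 and 0.12 in the same order. The total signal over genes was 2.17 times as high in tagged-CFAP20 as in CFAP20-KO, close to the ratios of 2.36 and 2.04 of SUPT5H and LEO1 and above that of CCNT1.

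As a share of each library's gene signal, the difference in SUPT5H was within the spread between libraries. SUPT5H took 0.277% and 0.257% of gene signal in the tagged-CFAP20 libraries, against 0.197% and 0.281% in the CFAP20-KO libraries. The ratio of its pooled shares was 1.21, with an exact counting interval of 0.782 to 1.96. CCNT1 took 0.0297% and 0.0304% in the tagged-CFAP20 libraries, against 0.0437% and 0.0512% in the CFAP20-KO libraries. Both tagged-CFAP20 shares of CCNT1 were thus below both CFAP20-KO shares, a pattern seen in 10.2% of the genes tested, and the interval of its share ratio, 0.252 to 2.298, covers 1. LEO1 took 0.0230% and 0.0311% in the tagged-CFAP20 libraries, against 0.0328% and 0.0256% in the CFAP20-KO libraries, so its groups overlapped. When every library was scaled to 1 total, the limma log2 changes were 0.19 in SUPT5H, -0.63 in CCNT1 and -0.10 in LEO1, with the median over all genes at 1.57. The normalization behind the deposited values is not given in the sources used here, and a factor applied to a whole library cannot be told apart from a change in all genes.

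**Figure D1:**
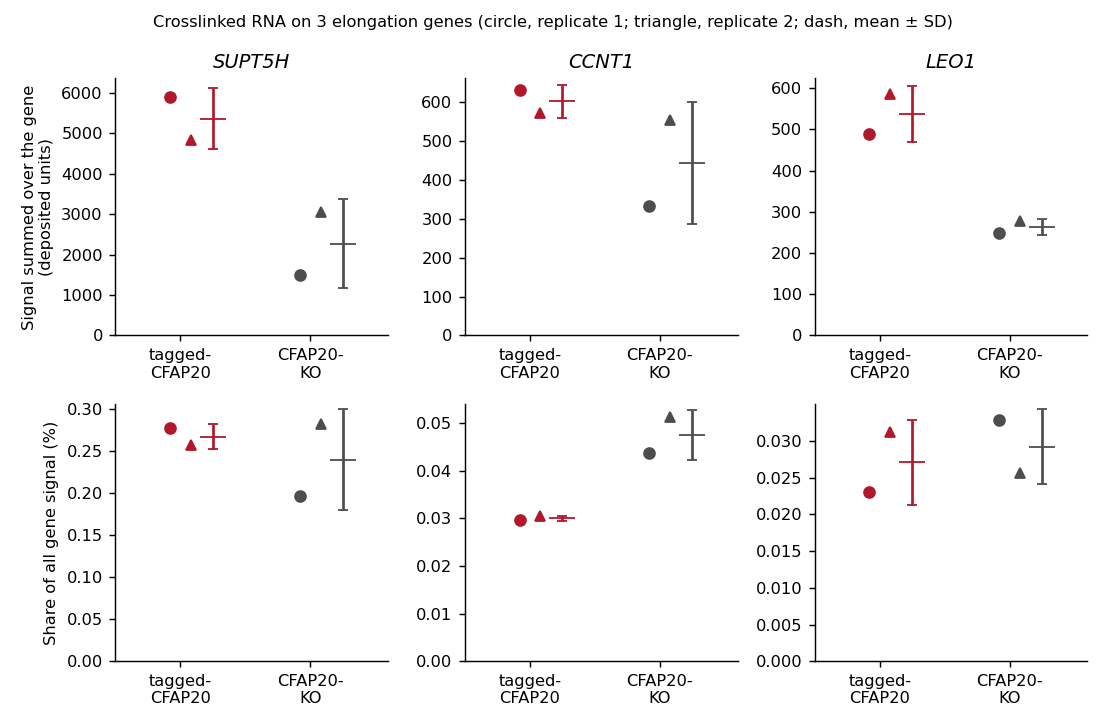
Signal of SUPT5H, CCNT1 and LEO1 summed over the gene in deposited units (upper row) and as a percentage of each library's gene signal (lower row), with tagged-CFAP20 left of CFAP20-KO; symbols are libraries and the dash with bars is the mean ± SD of 2 libraries. The summed signal of each gene was higher in both tagged-CFAP20 libraries, whereas the shares overlapped in SUPT5H and LEO1 and were lower in both tagged-CFAP20 libraries in CCNT1.

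The plot shows signal and share by library for each gene. Summed over the 3 genes, signal was 6491 ± 726.7 units in tagged-CFAP20 and 2976 ± 1274 units in CFAP20-KO (SD, n = 2 each). The exact two-sided permutation test over 6 assignments gave p = 0.333, the smallest it can give. The summed share was 0.324% ± 0.00841 in tagged-CFAP20 and 0.316% ± 0.0600 in CFAP20-KO (SD, n = 2 each), with an exact permutation p of 1. SUPT5H carries most of that sum: without it the share was 0.0571% ± 0.00627 in tagged-CFAP20 and 0.0767% ± 0.000162 in CFAP20-KO (SD, n = 2 each). That narrow CFAP20-KO SD comes from 6 overlaps on CCNT1 and 4 on LEO1, and counting error on them is larger than it. In pulled-down RNA of bulk cells, fewer cells with a transcript and less transcript per cell cannot be told apart, nor can the abundance of an RNA and its capture.

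Per kb of gene, SUPT5H stood far above CCNT1 and LEO1. It had 153 ± 21.5 units per kb in tagged-CFAP20 and 64.8 ± 31.3 units per kb in CFAP20-KO (SD, n = 2 each). Only 46 of the 4461 genes tested had more signal per kb in tagged-CFAP20, and SUPT5H stood at percentile 98.9 there and at percentile 98.4 in CFAP20-KO. CCNT1 had 21.1 ± 1.46 units per kb in tagged-CFAP20 and 15.6 ± 5.51 units per kb in CFAP20-KO (SD, n = 2 each). LEO1 had 15.9 ± 2.03 units per kb in tagged-CFAP20 and 7.78 ± 0.584 units per kb in CFAP20-KO (SD, n = 2 each). The order SUPT5H, CCNT1, LEO1 held in every library, although CCNT1 and LEO1 rested on 6 and 4 overlaps in CFAP20-KO. The median gene tested had 8.21 units per kb in tagged-CFAP20.

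Along SUPT5H, signal was concentrated on a few stretches rather than spread over the gene. The bins with at least 8 overlaps in tagged-CFAP20 replicate 1 formed 6 windows of 17 bins in all, 9.66% of the 176 bins of the gene. These windows held 69.4% of the SUPT5H overlaps in tagged-CFAP20 replicate 1, the library that defined them. In the libraries not used to choose them, they held 59.8% in tagged-CFAP20 replicate 2, against 55.6% and 72.7% in CFAP20-KO replicates 1 and 2. Of the 6 windows, the 3 largest had reads in both CFAP20-KO libraries, 1 had reads in CFAP20-KO replicate 1 alone, and 2 single-bin windows had none in either.

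The windows fall on named parts of the gene. The window at 3.9 to 4.5 kb from the deposited start covers exons 1 and 2 of the canonical transcript, whose annotated start lies downstream of the deposited one, and includes the start of the coding sequence. It had 69 and 65 overlaps in the tagged-CFAP20 libraries, against 4 and 4 in the CFAP20-KO libraries. The window at 11.5 to 11.9 kb covers exon 3, the purine-rich sequence printed above, and had 98 and 45 overlaps in the tagged-CFAP20 libraries, against 3 and 1 in the CFAP20-KO libraries. Tagged-CFAP20 replicate 1 was further above replicate 2 there than in the windows on either side. The window at 15.9 to 17.7 kb spans exons 4 to 8 and the short introns between them, and had 121 and 84 overlaps in the tagged-CFAP20 libraries, against 2 and 3 in the CFAP20-KO libraries. Within it, the intron bin printed above had 22 and 15 overlaps in the tagged-CFAP20 libraries, against 0 and 1 in the CFAP20-KO libraries. The exon 4 bin that adjoins it had 21 and 13 in the tagged-CFAP20 libraries, against 0 and 1 in the CFAP20-KO libraries. A read can count in both bins. All 200 bases of the intron bin belong to an exon of another annotated SUPT5H transcript. Reads from unspliced RNA and from such a transcript were not told apart.

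**Figure D2:**
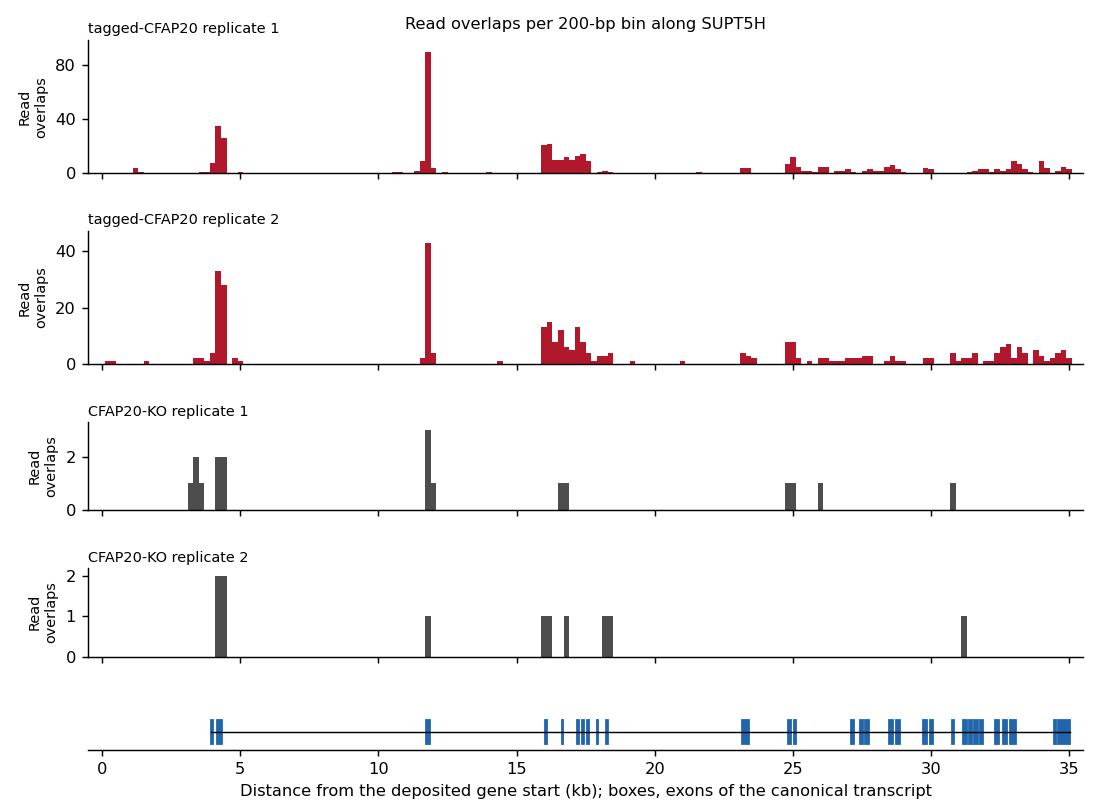
Read overlaps per 200-bp bin along SUPT5H in the 4 libraries, tagged-CFAP20 above CFAP20-KO, against distance from the deposited gene start in kb, each panel with its own vertical scale; boxes are exons of the canonical transcript. The highest bin of tagged-CFAP20 replicate 1, with 89 overlaps at exon 3, is also the highest of tagged-CFAP20 replicate 2, with 43.

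The SUPT5H profile was alike in the tagged pair. Across its 176 bins, overlaps in the 2 tagged-CFAP20 libraries had a Pearson r of 0.918, and r between a tagged-CFAP20 and a CFAP20-KO library ran between 0.595 and 0.742. The CFAP20-KO pair had an r of 0.542. These values describe bins of 1 gene that share exons and base composition, and the lower ones go with libraries of 18 and 11 overlaps. Of the 30 canonical exons, 28 and 29 touched a covered bin in the tagged-CFAP20 libraries, against 6 and 5 in the CFAP20-KO libraries. The 5 kb upstream of the deposited start held 0 overlaps in all 4 libraries, though they lie within the annotated gene, which starts at 39436156. The 5 kb past the gene end had 4 and 0 overlaps in the tagged-CFAP20 libraries, against 0 and 0 in the CFAP20-KO libraries.

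CCNT1 signal lay mainly at the far end of the gene. From the gene start to its midpoint, CCNT1 had 13.3% of its 90 tagged-CFAP20 overlaps, where the median of 1503 other coding genes of up to 100 kb with at least 40 such overlaps was 42.5% and 41 of them had less. SUPT5H had 62.6% of its overlaps in that part and LEO1 38.8%. The last exon of CCNT1, exon 9, holds much of the coding sequence and the whole 3′ UTR. Bins touching it had 24 and 24 overlaps in the tagged-CFAP20 libraries, against 4 and 2 in the CFAP20-KO libraries, which is every CFAP20-KO overlap of the gene. Both CFAP20-KO libraries had reads on the same pair of adjoining bins at the start of exon 9, the downstream one of which is printed above. In the tagged-CFAP20 libraries the 23 bins of 3′ UTR alone held 10 and 4 overlaps, against 0 and 0 in the CFAP20-KO libraries. In the tagged-CFAP20 libraries the 99 intron bins of CCNT1 held 14 and 11 overlaps, against 0 and 0 in the CFAP20-KO libraries, whose depth does not allow a difference to be detected there.

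LEO1 had small clusters of reads on its exons. The bin printed above, at the end of exon 10, had 5 and 3 overlaps in the tagged-CFAP20 libraries, against 0 and 0 in the CFAP20-KO libraries. Exon 2, the longest exon, touched bins with 3 and 7 overlaps in the tagged-CFAP20 libraries, against 0 and 1 in the CFAP20-KO libraries. The signal is not split by strand, and LEO1 is overlapped from the opposite strand by MAPK6, which encodes a kinase, and TMOD3, which encodes an actin-capping protein. The 146 bins shared with these genes held 29 and 32 of the LEO1 overlaps in the tagged-CFAP20 libraries, against 3 and 1 in the CFAP20-KO libraries. In the 23 bins outside them, which include the end of exon 10, 9 and 10 overlaps were seen in the tagged-CFAP20 libraries, against 0 and 0 in the CFAP20-KO libraries. Across the 169 bins of LEO1, the tagged-CFAP20 pair had an r of 0.512, and across the 143 bins of CCNT1 it had an r of 0.466.

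**Figure D3:**
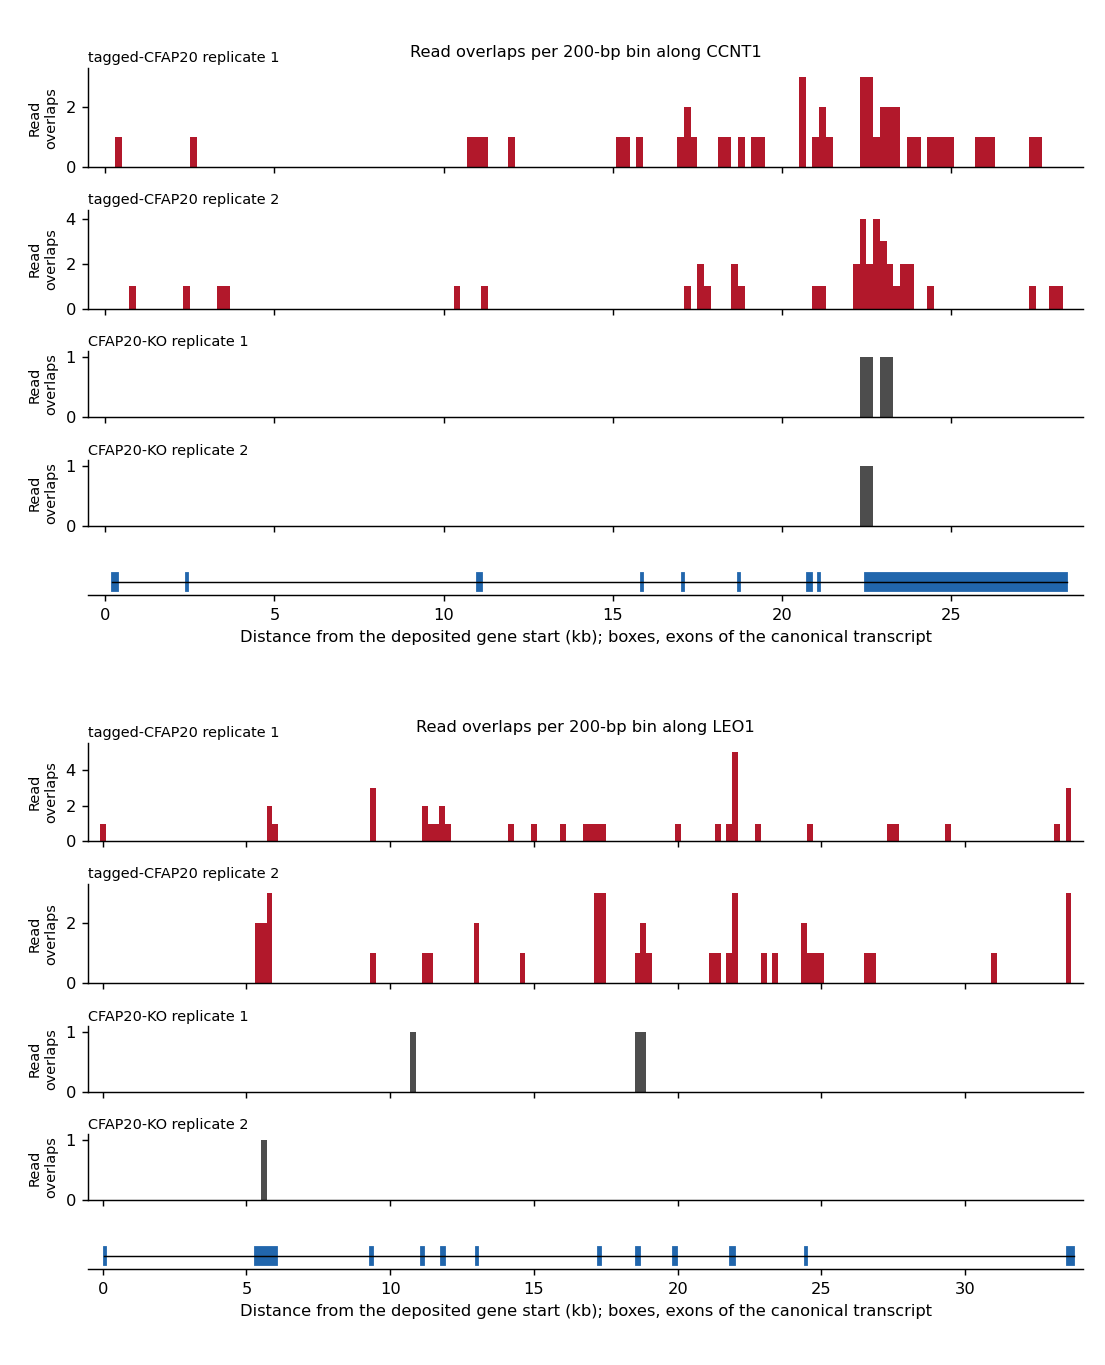
Read overlaps per 200-bp bin along CCNT1 and LEO1 in the 4 libraries, tagged-CFAP20 above CFAP20-KO, against distance from the deposited gene start in kb, each panel with its own vertical scale; boxes are exons of the canonical transcript. CCNT1 reads gather at the start of its long last exon, where both CFAP20-KO libraries also have theirs, and LEO1 has at most 1 overlap per bin in CFAP20-KO.

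The 3 genes shared a high exon share. Bins touching an exon of the canonical transcript held 71.8% of tagged-CFAP20 overlaps in SUPT5H, 72.2% in CCNT1 and 66.3% in LEO1. These bins made up 22.2%, 30.1% and 13.0% of the bins of SUPT5H, CCNT1 and LEO1. Over the 1503 other genes the median share was 45.4%, with quartiles of 32.6% and 59.9%, on a median of 16.3% of bins. Of those genes, 1345 had a lower share than SUPT5H, 1347 a lower share than CCNT1 and 1265 a lower share than LEO1. No test was made of this, since genes differ in length and in number of exons. Exon bins were themselves a larger part of SUPT5H and CCNT1 than of the median gene, and a smaller part of LEO1. The ranks do not allow for that.

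Coding bins stood above introns in both groups. In SUPT5H, coding bins had 538.4 and 471 units per kb in the tagged-CFAP20 libraries, against 123 and 337 units per kb in the CFAP20-KO libraries. SUPT5H intron bins had 71.4 and 48.8 units per kb in the tagged-CFAP20 libraries, against 10.6 and 23.7 units per kb in the CFAP20-KO libraries. In CCNT1, coding bins had 80.3 and 90.6 units per kb in the tagged-CFAP20 libraries, against 83.0 and 138 units per kb in the CFAP20-KO libraries. CCNT1 was the gene whose coding bins did not show a higher signal with tagged CFAP20, but its CFAP20-KO values rest on 4 and 2 overlaps. The 2 overlaps of CFAP20-KO replicate 2 lie in adjoining bins, which 1 read can cover. In LEO1, coding bins had 73.0 and 88.7 units per kb in the tagged-CFAP20 libraries, against 18.9 and 62.9 units per kb in the CFAP20-KO libraries, where each value is 1 overlap. Pooled over the 3 genes, bins touching an exon of any transcript held 86.8% ± 1.07 of overlaps in tagged-CFAP20 and 86.0% ± 19.8 in CFAP20-KO (SD, n = 2 each, exact permutation p of 1).

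**Figure D4:**
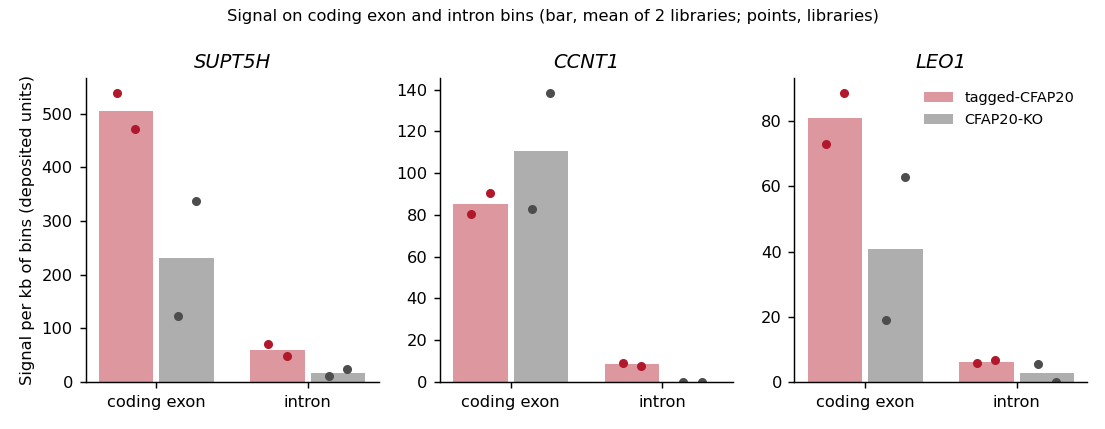
Signal per kb of coding exon bins and of intron bins in SUPT5H, CCNT1 and LEO1, in deposited units, with tagged-CFAP20 left of CFAP20-KO; bars start at 0 and are means of 2 libraries, points are libraries. Coding bins lie above intron bins in both groups, and in CCNT1 the CFAP20-KO coding values of 83.0 and 138 stand beside tagged-CFAP20 values of 80.3 and 90.6. Those CFAP20-KO values rest on 4 and 2 overlaps.

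The part from the gene start to the midpoint held a lower share of overlaps in both tagged-CFAP20 libraries than in either CFAP20-KO library, a difference of a kind that 4 libraries cannot call. It held 55.7% ± 4.56 of the overlaps of the 3 genes in tagged-CFAP20 and 62.1% ± 3.03 in CFAP20-KO (SD, n = 2 each), with an exact permutation p of 0.333, the smallest possible at any size of difference. The first of 3 equal parts of the gene length held 19.9% ± 1.90 in tagged-CFAP20 and 35.9% ± 0.202 in CFAP20-KO (SD, n = 2 each), with the same exact permutation p of 0.333. The CFAP20-KO shares rest on 25 and 14 overlaps in replicates 1 and 2, and counting error on them is larger than their SDs. Leaving out SUPT5H, tried after seeing the data, reversed the midpoint difference. The part before the midpoint then held 25.2% ± 3.32 in tagged-CFAP20 and 23.8% ± 13.5 in CFAP20-KO (SD, n = 2 each). The first 20% of SUPT5H, which holds exons 1 and 2, took 16.8% and 22.0% of its overlaps in the tagged-CFAP20 libraries, against 44.4% and 36.4% in the CFAP20-KO libraries on 8 and 4 overlaps. The last 20% of SUPT5H took 18.6% and 22.0% in the tagged-CFAP20 libraries, against 5.56% and 9.09% in the CFAP20-KO libraries, on 1 overlap each.

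Other genes of polymerase II elongation were read from a list of 61, of which 8 are in the tables and all 8 were tested. In limma, 4 of the 8 rose with tagged CFAP20 and 0 fell, that is 50%, against 37.6% of all genes tested. Their median log2 change was 2.62, against 2.10 over all genes. Of the 4 calls, 3 rest on genes with 0 overlaps in both CFAP20-KO libraries. These 3 passed the filter of 2 libraries above 0 through the tagged-CFAP20 group alone, and their changes follow the pseudocount. They enter both the 50% and the median of 2.62, which therefore do not set the list apart from all genes. POLR2G and POLR2K, which encode polymerase subunits, had 12 and 10, and 8 and 4, overlaps in the tagged-CFAP20 libraries. ELOC, which encodes elongin C, had 18 and 9. Their limma adjusted p were 0.00597, 0.00964 and 0.00807, but their mean signals of 147, 79.3 and 178 units in tagged-CFAP20 lie under 264 units, which 3 reads spread over the CFAP20-KO pair would give. No fold is therefore given. When either tagged-CFAP20 library was left out, POLR2G, POLR2K and ELOC failed the filter of 2 libraries above 0 and were not tested. With a pseudocount of 300 in place of 10, only 1 gene of the list passed, against 1049 of all genes tested.

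The remaining 4 genes of the list did not pass. CTR9, which like LEO1 encodes a subunit of the PAF1 complex, had 37 and 42 overlaps in the tagged-CFAP20 libraries, close to the 38 and 42 of LEO1, against 3 and 0 in the CFAP20-KO libraries. Its limma adjusted p was 0.287. IWS1, which encodes a partner of the elongation factor SPT6, had 99 and 84 overlaps in the tagged-CFAP20 libraries, against 1 and 3 in the CFAP20-KO libraries, with a limma adjusted p of 0.311. Both results moved when 1 CFAP20-KO library was left out. In CTR9 the log2 change was 1.05 with a limma adjusted p of 0.00574 without replicate 2. Without replicate 1 its control is a single library at 0, whose limit of 1143 units for 3 reads is above the CTR9 mean of 530 units in tagged-CFAP20, so no value is given. In IWS1 the log2 change was 0.55 with a limma adjusted p of 0.0828 without replicate 1, and without replicate 2 its control is a single overlap, so no value is given. AFF1 and TCEA3 had limma adjusted p of 0.536 and 0.849. Per kb, SUPT5H at 153 units in tagged-CFAP20 stood above all 8 genes of the list, while CCNT1 at 21.1 lay between POLR2K at 23.2 and CTR9 at 18.4, and LEO1 at 15.9 lay below CTR9.

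The genes most like each member over the 4 libraries were found by Euclidean distance on log2(signal + 10). For SUPT5H these were CCDC14, CYR61 and PHLDB2, at distances of 0.34, 0.36 and 0.56. CYR61 is a matricellular protein gene of 3.20 kb, far shorter than SUPT5H at 35.0 kb, and it had 5257 and 4403 units in the tagged-CFAP20 libraries, against 1826 and 3046 units in the CFAP20-KO libraries. For CCNT1 they were BCL9, BIRC2 and CLASP2, at 0.14, 0.25 and 0.29, all with the same 332 and 553.8 units in the CFAP20-KO libraries. For LEO1 they were NTNG1, GLRB and FGD4, at 0.084, 0.18 and 0.27, all with the same 249 and 277 units in the CFAP20-KO libraries. For CCNT1 and LEO1 this likeness therefore starts from shared counts of 1 to 4 control overlaps.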

How the data were processed

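FLASH-seq was measured in 4 libraries, grouped by sample title. The authors deposited 1 table of binned signal (read coverage) per library, 1 gene per line, with other columns that give position and length. Tools named in the submitters' processing notes, with no role or order, are Bowtie2 2.3.5, HOMER 4.8.2, UMI-tools 1.0.0 and R 4.0.5, and the build is hg38. The sources used here do not give the normalization, mapping settings or duplicate handling. The tables hold 1 more column, left out because no sample label matches it.

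Each deposited value was a whole multiple of 1 step per library (100.0% of values within 0.01), taken as 1 read overlapping 1 bin. A read covered 1.38 bins on average, and exact counting intervals and limits divide by this. Bins of 200 bp are centred on their stated distance, judged from windows of opposite-strand neighbours, which also showed that signal is not split by strand. Of 1001 bins, 526 were read, from 5 kb upstream to 100 kb downstream. A gene that a table did not list counted as 0, since all 425 of 425 such genes lying inside another gene's window held 0 reads. GENCODE 44 matched 9464 of 9667 genes by identifier, chromosome and strand.

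Signal was summed from gene start to gene end and tested with limma 3.58.1 in R 4.3.3 (trend, log2(signal + 10), no further scaling, genes above 0 in at least 2 libraries, Benjamini-Hochberg over 4461 genes, threshold 0.05), after a test on simulated data. Single values had an exact two-sided permutation test. The 3 genes, the list of 61 elongation genes and the tests were chosen with earlier results of these data known. Beyond the 3 genes, the text names list genes past the threshold, the 5 with most signal per kb, and the 3 nearest genes to each member. One such gene is left out of the text. AFF1, TCEA3, the marker genes and the printed bins were chosen after their values were seen. Alternatives were other pseudocounts, filters, scalings and gene windows, a replicate block, no trend and leaving out each library.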

Additional observations from a re-analysis of the deposited data

How the results depend on the processing

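Of 50 recomputed values with all libraries kept, 35 were counted as unchanged. For limma changes this means the same direction and side of the threshold, and for numbers of genes called a similar number. For single values it means the same direction, since their exact permutation test cannot reach the threshold. With libraries scaled to the same total, the log2 change reversed to -0.63 in CCNT1 and -0.10 in LEO1, and under quantile normalization to -0.54 and -0.0087, where limma called 0 genes in all and 0 of the list, with 16.0% of the 4461 genes at an unadjusted p under 0.05, and the median change was -0.13. A pseudocount of 300 gave 1049 genes called and 1 of the list. Signal in the first 10 kb gave 2.28 in CCNT1 (limma adjusted p = 0.0152), from 2 and 4 tagged-CFAP20 overlaps against 0 and 0, and turned the share of gene signal on the 3 genes to a difference of -0.208 percentage points. Leaving out SUPT5H, tried after seeing the data, turned that difference to -0.0196, the share before the midpoint to 1.43 and the exon share to -15.1 percentage points. Exons of the canonical transcript, also tried after seeing the data, turned the exon share to -3.31. Leaving out 1 library at a time gave log2 changes of 0.80 to 1.83 in SUPT5H, 0.11 to 0.83 in CCNT1 and 0.87 to 1.13 in LEO1, 0 to 3674 genes called, 0 to 7 of the list, a share of gene signal of -0.0343 to 0.0506 and an exon share of -13.2 to 14.8 percentage points (tagged-CFAP20 minus CFAP20-KO). The cause of these shifts was not tested. Totals were taken over the bins read, not over whole windows as planned.

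Labels give both groups replicate numbers 1 and 2 but do not say that a number marks a shared day or batch. Deviations of same-numbered libraries had an r of 0.00515 over 4461 genes. With few control reads per gene, this r cannot tell whether the numbers mark a shared batch. The main fit has no replicate block. With a replicate block, SUPT5H passed the threshold, at a log2 change of 1.32 and a limma adjusted p of 0.0121, against 0.102 without it, and 1874 genes were called. Control depth is a limit, as the CFAP20-KO libraries hold 29 overlaps on SUPT5H, 6 on CCNT1 and 4 on LEO1.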
